A study of Apis mellifera with 10 samples.

Results

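Among the 5 control libraries of an antennal RNA-seq study of the honey bee (Apis mellifera), libraries 6 and 7 were set against libraries 3, 4 and 5. The 5 controls are among 10 libraries in all. Every library came from antennae of adult bees, reared in the laboratory and dissected at most 24 h after eclosion. The controls had been injected with buffer alone as embryos. The other 5 libraries, numbered 3, 5, 9, 11 and 12, carry the label orco-KO: their embryos had received a CRISPR ribonucleoprotein directed at orco, so injection as such is shared by all libraries. Nothing in the labels separates controls 6 and 7 from the other controls, and the labels name neither a colony, a sex nor the number of bees per library. Whether libraries came from separate bees is not stated either, so each p-value covers only the spread among the libraries, which may be technical.

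The sides were picked from the values themselves, after principal components had set controls 6 and 7 apart. The gene differences between the sides are therefore a description and carry no test. Over 10 libraries, component 1 held 37.9% of the variance of log2 CPM and component 2 held 20.5%. CPM are counts of a gene per 1000000 bee gene counts, with the total of each library scaled by its TMM factor. On component 1, controls 6 and 7 lay at 42.1 and 46.2, the other controls between 11.6 and 24.1, and the orco_KO libraries between -45.3 and -15.1. On component 2, controls 6 and 7 lay at 20.4 and 25.4 and controls 3, 4 and 5 at -49.4, -13.1 and -24.7, while orco_KO ranged from -11.4 to 15.4. Controls 6 and 7 were thus farther from orco_KO than the other controls on component 1. On component 2 they lay above the orco_KO range, and controls 3, 4 and 5 lay below it.

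**Figure D1:**
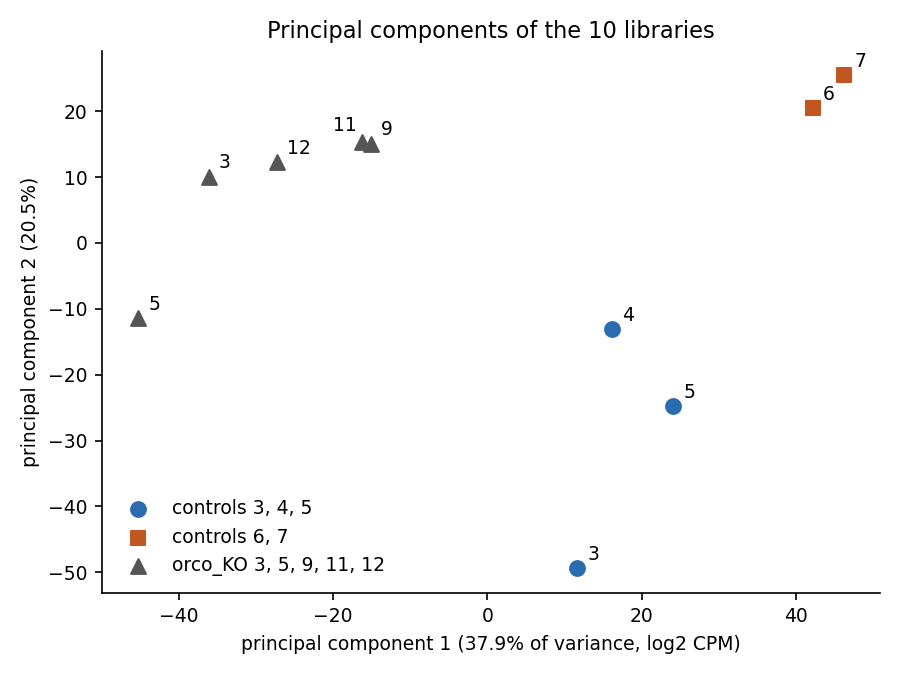
Principal components 1 and 2 of log2 CPM over the 10 libraries, with the replicate number of each library beside its point and one colour and symbol for each of the 3 sets. Controls 6 and 7 lie together at the upper right, controls 3, 4 and 5 below 0 on component 2, and the orco_KO libraries below 0 on component 1.

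An insect antenna is covered by a cuticle that bears sensory hairs. In each hair, olfactory neurons carry receptors, and support cells fill the fluid around their dendrites with odorant binding proteins, small secreted proteins that carry odorants. An odorant receptor works as a channel only with its coreceptor, Orco, which the annotation lists as Or2. In the first day of adult life the cuticle is still being tanned and hardened, after a moult driven by the steroid hormone ecdysone.

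Controls 6 and 7 were also the deepest libraries of the study, with 21580111 and 23453690 bee gene counts against 9497211 to 16128744 in controls 3, 4 and 5 and 8577416 to 18308425 in orco_KO. An exact permutation test of depth over the 10 ways to split 5 controls gave p = 0.1 (two-sided), the smallest p this design allows. Depth is the sum of the same counts from which the sides were picked, so this p is descriptive only. Ribosomal RNA genes took 0.413% and 0.296% of counts in controls 6 and 7 and 0.674% to 1.02% in the others. Reads on 5 virus genomes amounted to 130 per 1000000 reads in control 6 and to 1.31 to 3.37 in the other 4 controls, so that control 7 lay within the range of controls 3, 4 and 5. The exact permutation test over the same splits gave p = 0.2 (two-sided), in a design that cannot go below 0.1. In control 6, 2582 of the virus reads fell on Israeli acute paralysis virus (IAPV). Of the marker sets, the 7 neuron markers summed to 7640 and 7962 CPM in controls 6 and 7 against 11256 to 18377 CPM in the other controls, and the 4 fat body markers to 5.11 to 10.8 against 27.5 to 98.2 CPM. Muscle markers summed to 1790 to 2533 against 2818 to 3442 CPM, the glial Eaat-2 to 6.24 to 7.11 against 7.02 to 9.14 CPM, and the 4 eye opsins to 6.05 to 9.24 against 3.09 to 8.11 CPM. The 7 antenna markers, most of them binding proteins, summed to 7926 to 8832 against 15472 to 33254 CPM. Obp1 and Obp2 made up most of these sums. The hemocyte marker PPO was at 2.27 to 2.60 against 3.49 to 20.7 CPM. Of the neuron markers 6 of 7 were lower without overlap, and of the antenna markers 3 of 7. Only 1 of 4 fat body markers and 0 of 5 muscle markers were, against 23.9% of all tested genes. Vg made up most of the fat body sum, at 98.0, 23.6 and 38.2 CPM against 4.88 and 10.2 CPM. Mrjp1, Mrjp3 and Apamin, products of head glands and venom, were read in no control. The part of depth, ribosomal RNA, virus and cell makeup in the gene differences was not tested. In bulk tissue, fewer cells of a type and less RNA per cell cannot be told apart.

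Or2 was measured first, as the check on the labels. It was at 492, 306, 448, 338 and 328 CPM in controls 3, 4, 5, 6 and 7 and between 14.2 and 36.1 CPM in orco_KO. Both sides of the controls overlapped for Or2, and each orco_KO library lay below each control.

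Of 9775 bee genes that passed the filter on low counts, 178 were set apart, meaning that the lowest library of the higher side lay at least 2-fold above the highest library of the lower side. In controls 6 and 7, 51 of them were higher (0.522% of the genes tested) and 127 lower (1.3%). A gap of any size, so that the sides did not overlap, was found for 2596 genes higher in controls 6 and 7 (26.6%) and 2335 lower (23.9%). Because the sides were chosen from these values, the counts only describe the split. Leaving out 1 control made the gap easier to meet, with 77 to 154 higher and 172 to 303 lower genes, the most without controls 4 and 6. Just inside and outside the threshold stood LOC412235 with a gap of 2.001-fold and LOC113219112 with 1.999-fold among higher genes, and LOC410369 with 2.006-fold and LOC724795 with 1.9996-fold among lower ones. The balance of directions depends on how libraries are scaled: with total counts in place of TMM factors, the median of all tested genes moved from 0.05 to 0.48 on the log2(CPM + 0.5) scale, and 253 genes were set apart as higher and 38 as lower, so that 86.9% were higher against 28.7%.

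Odorant binding proteins had more members set apart as lower in controls 6 and 7 than any other list. Of 16 tested, 5 were set apart as lower (Obp1, Obp5, Obp6, Obp11 and Obp21), 9 were lower without overlap and 1 was higher without overlap. Over all tested genes these shares were 1.3%, 23.9% and 26.6%. Their median log2 difference was -1.53, against 0.07 over all tested genes. Summed over the list, they gave 7121 and 6900 CPM in controls 6 and 7, 15256 to 31315 CPM in the other controls and 12264 to 20742 CPM in orco_KO. Obp1 and Obp2 made up most of each sum. Obp2 was lower without overlap but not set apart, at 17790, 10094 and 8229 CPM against 4029 and 4204 CPM. In orco_KO it was at 6151 to 12823 CPM. With total counts, 7 of the 16 were lower without overlap and 10 of 16 had a difference below 0. The shares above come from TMM factors and are no background for these counts, as total counts moved the all-gene median to 0.48.

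Obp1 (linkage group 2, 14654212 to 14655874) was at 9951, 5695 and 4686 CPM in controls 3, 4 and 5 and at 1948 and 1907 CPM in controls 6 and 7, a log2 difference of -1.77 ± 0.33 (SE). Its 5 orco_KO values ran from 4035 to 5842 CPM, all on the side of controls 3, 4 and 5. Obp11 (linkage group 10, 10093970 to 10094816) was at 117, 75.9 and 58.7 CPM against 9.79 and 8.56 CPM, and at 21.8 to 55.4 CPM in orco_KO. Here orco_KO lay between the sides: none of its 5 libraries reached control 5, and none was as low as control 6.

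Obp21 (linkage group 15, 1959554 to 1961654) was at 278, 93.9 and 156 CPM against 13.4 and 24.2 CPM, a log2 difference of -3.17 ± 0.47 (SE), and ran from 89.2 to 505 CPM in orco_KO. Obp5 and Obp6 are neighbours on linkage group 9 (11945173 to 11971739). Obp5 was at 735, 330 and 283 CPM against 87.1 and 108 CPM, with orco_KO at 181 to 442 CPM, and Obp6 was at 1635, 1461 and 1515 CPM against 600 and 270 CPM, with orco_KO at 985 to 1564 CPM. Other members did not differ in this way: Obp10, Obp17, Obp18 and Obp4 overlapped between the sides, at log2 differences of 0.13, -0.08, -0.02 and -0.50. The difference was thus not shared by every binding protein. The 5 chemosensory proteins, another family of small secreted carriers, had a median difference of -0.39, or 0.07 with total counts, and none was set apart. CSP1 was at 2150, 2275 and 899 CPM against 761 and 994 CPM.

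**Figure D2:**
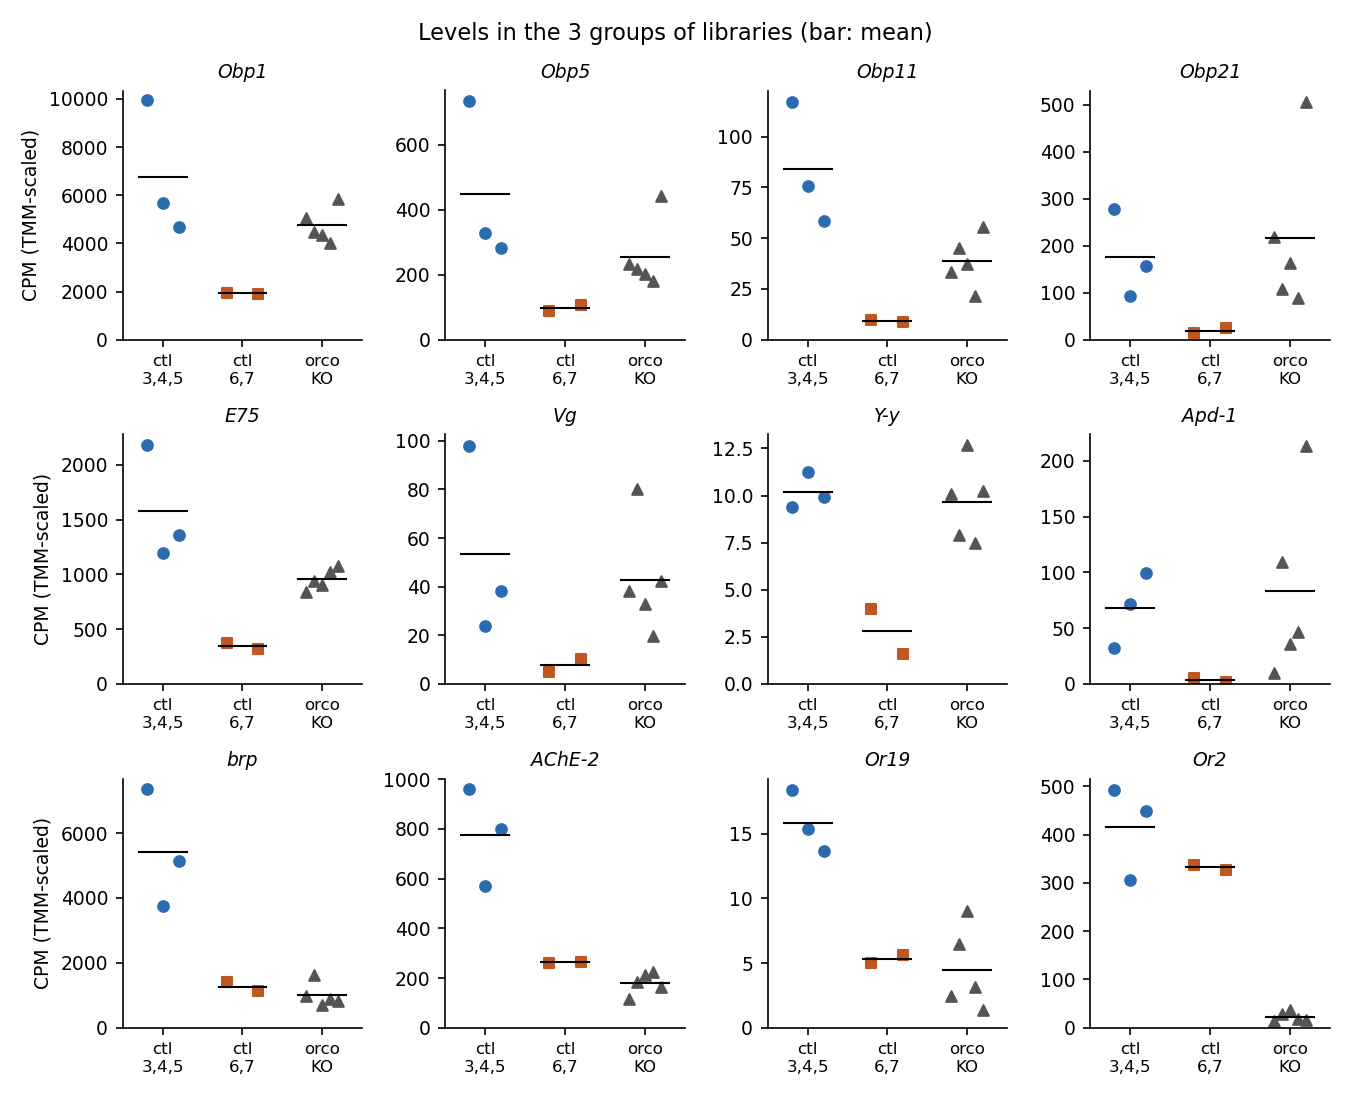
TMM-scaled CPM (linear axes from 0) of 11 genes that were set apart as lower in controls 6 and 7, and of Or2, in each library, with circles for controls 3, 4 and 5, squares for controls 6 and 7, triangles for orco_KO and a bar for each mean. In the upper 2 rows most orco_KO libraries lie above controls 6 and 7, while for brp, AChE-2 and Or19 they lie near controls 6 and 7, and Or2 is low in orco_KO alone.

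Genes of neurons and synapses were lower in controls 6 and 7 as a list. All 13 tested had a difference below 0, with a median of -0.71, and 10 of 13 were lower without overlap, against 23.9% of all tested genes. Of all 9775 genes, 4467 had a difference below 0. With total counts, 9 of the 13 stayed below 0 and 5 were lower without overlap. Total counts moved the all-gene median to 0.48, so the 23.9% from TMM factors is no background for these counts. The 2 that were set apart as lower, against 1.3% of all tested genes, were brp and AChE-2, which earlier results of these data already name. The gene brp (linkage group 9, 8552456 to 8606318) codes for Bruchpilot, in Drosophila a scaffold of the presynaptic active zone. It was at 7348, 3738 and 5130 CPM in controls 3, 4 and 5, at 1402 and 1138 CPM in controls 6 and 7 and at 713 to 1619 CPM in orco_KO. AChE-2 (linkage group 8, 7426943 to 7561836) codes for an acetylcholinesterase, which breaks down the transmitter acetylcholine. It was at 961, 569 and 800 CPM against 262 and 265 CPM, and at 116 to 225 CPM in orco_KO. For both genes the 5 orco_KO libraries lay on the side of controls 6 and 7, and for AChE-2 they were all lower still.

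For Nrx-1 and Para, orco_KO was lower than both sides of the controls. Nrx-1, coding for the synaptic adhesion protein neurexin, was at 828.7 to 1197 CPM in controls 3, 4 and 5, at 872 and 957 CPM in controls 6 and 7 and at 188 to 309 CPM in orco_KO. Para, coding for the voltage-gated sodium channel, was at 2626 to 4075 CPM against 2294 and 2568 CPM, with orco_KO at 914 to 1409 CPM. Dscam, a cell adhesion gene, showed another order. It was at 1402, 785 and 908 CPM against 463 and 388 CPM, and 4 of 5 orco_KO libraries were on the side of controls 3, 4 and 5. Nrx-1, Para and Dscam were chosen after their values were seen.

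Odorant receptors, which bind the odorants, were divided. Of 33 tested, 21 were above 0 and 12 below, with a median of 0.27. With 0.5 CPM added the median was 0.22, and with total counts as well 0.64. Or19 was the only one set apart, at 18.4, 15.3 and 13.6 CPM against 4.99 and 5.63 CPM. In orco_KO it was at 1.40 to 9.02 CPM, on the side of controls 6 and 7 in 5 of 5 libraries. Or19 lies in the receptor array of linkage group 2 (10031932 to 10033502), where reads that map to several copies were not counted. Without overlap, 9 of 33 receptors were higher in controls 6 and 7, near the 26.6% of all tested genes, and 1 was lower, against 23.9% of all. The summed level of the list was 501 and 485 CPM against 446 to 670 CPM, so the sums overlapped. The taste receptor gene Gr10 (linkage group 4, 10523031 to 10536471) was set apart at a low level, with 2.02, 2.32 and 3.82 CPM against 0.340 and 0.202 CPM and 1.47 to 2.90 CPM in orco_KO.

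Genes that respond to ecdysone and juvenile hormone did not move together. E75 (linkage group 11, 10210607 to 10372038) codes for a nuclear receptor induced by ecdysone and was the only one of 6 to be set apart. It was at 2185, 1191 and 1355 CPM in controls 3, 4 and 5 and at 374 and 321 CPM in controls 6 and 7, a log2 difference of -2.13 ± 0.29 (SE), and at 841 to 1079 CPM in orco_KO. No orco_KO library reached either side, and all 5 were nearer to controls 3, 4 and 5. E74, another ecdysone-induced gene, was higher without overlap at 659 and 653 CPM against 397 to 444 CPM, but it overlaps another gene on its strand, so its count is uncertain. Lower without overlap was also Mblk-1, a transcription factor of the honey bee brain known to act in ecdysone signalling, at 4460 and 4165 CPM against 7493 to 12444 CPM. From another list, that of neuropeptides and receptors, the insulin receptor gene InR-2 was lower without overlap, at 193 and 196 CPM against 276 to 489 CPM. E74 and Mblk-1 were chosen after their values were seen.

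Several single genes of pigment, yolk and development were lower in controls 6 and 7 and had all 5 orco_KO libraries with controls 3, 4 and 5. Y-y, of the yellow family known for cuticle pigment, was at 9.41, 11.3 and 9.95 CPM against 3.97 and 1.58 CPM, and at 7.46 to 12.7 CPM in orco_KO. Vg, coding for the yolk precursor vitellogenin, was at 98.0, 23.6 and 38.2 CPM against 4.88 and 10.2 CPM, and at 19.6 to 80.1 CPM in orco_KO. Fem, the feminizer gene of honey bee sex determination, was at 256, 228 and 306 CPM against 106 and 85.8 CPM and at 183 to 262 CPM in orco_KO, and was chosen after its values were seen. For all 3 genes orco_KO overlapped controls 3, 4 and 5 and did not overlap controls 6 and 7. Kr, in Drosophila the segmentation gene Krüppel, was at 11.96, 8.96 and 9.13 CPM against 1.74 and 3.13 CPM, with orco_KO between 4.49 and 9.49 CPM. For Kr, unlike those 3 genes, only 4 of 5 orco_KO libraries were on the side of controls 3, 4 and 5.

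Cuticle protein genes went in both directions. Of 20 tested, 3 were set apart as higher in controls 6 and 7 and 2 as lower, against 0.522% and 1.3% of all tested genes. Without overlap, 7 of the 20 were higher and 3 lower, near the 26.6% of all tested genes and below the 23.9%. The median difference of the list was 0.54. CPR6 (linkage group 8, 3969484 to 3975756), a cuticle protein of the chitin-binding CPR family, was at 13.03, 9.73 and 12.7 CPM in controls 3, 4 and 5 and at 45.1 and 120 CPM in controls 6 and 7. CPR27 of the same family was at 16.5, 13.9 and 10.8 CPM against 34.5 and 39.5 CPM, and Cpap3-c, a cuticle protein with peritrophin-like chitin-binding domains, at 36.6, 44.8 and 33.2 CPM against 111 and 108 CPM. In orco_KO, CPR27 was at 27.8 to 63.1 CPM, with controls 6 and 7 in 5 of 5 libraries. Cpap3-c was at 60.2 to 196 CPM, above controls 3, 4 and 5 throughout and with controls 6 and 7 in 4 of 5 libraries. CPR6 (12.4 to 54.9 CPM) spread over both sides. The 2 lower genes, Apd-1 and Apd-3, code for apidermins, cuticle proteins described in the honey bee. They lie close together on linkage group 4 (4479531 to 4488233), and the apidermin gene Apd-2 beside them was not lower, at 127 and 195 CPM against 39.9 to 165 CPM. Apd-1 was at 32.1, 71.6 and 99.5 CPM against 5.37 and 1.79 CPM and varied from 9.38 to 213 CPM within orco_KO. Apd-3 was at 1.61, 5.61 and 3.13 CPM against 0.340 and 0.202 CPM.

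Of 17 tested genes of antioxidant defence and detoxification, 2 were set apart as lower, against 1.3% of all tested genes. A difference below 0 was found for 14 of the 17. Without overlap, 6 were lower (23.9% of all tested genes were) and 0 higher (26.6% of all were), and the median was -0.65. With 0.5 CPM added the median was -0.58, and with total counts as well -0.16. Cyp4g11 (linkage group 16, 2830988 to 2835517) belongs to the CYP4G cytochrome P450s, which in Drosophila make cuticular hydrocarbons, and it had the widest gap of all lower genes. It was at 6.18, 5.67 and 11.8 CPM in controls 3, 4 and 5 and at 0.340 and 0.202 CPM in controls 6 and 7, a log2 difference of -4.80 ± 0.53 (SE). Its orco_KO values split, with 15.1, 16.8 and 22.5 CPM in libraries 3, 5 and 9 and 1.53 and 3.08 CPM in libraries 11 and 12. LOC724946, listed with the synonym CYP6AS11, was at 216, 89.6 and 80.8 CPM against 12.4 and 17.5 CPM and at 80.2 to 185 CPM in orco_KO.

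Lists of housekeeping genes had no member set apart. The 7 ribosomal protein genes were all above 0, at a median of 0.61, and 6 were higher without overlap, against 26.6% of all tested genes. Of 4 heat shock genes, 3 were higher without overlap and 1 was below 0. Among the 3 was Hsc70-4, which codes for a chaperone, at 1790 and 1646 CPM against 912 to 1311 CPM. All 9 tested genes of the mitochondrial genome were below 0, at a median of -1.09, and 4 of them were lower without overlap, against 23.9% of all tested genes. CYTB, a subunit of respiratory complex III, was at 53.0 and 41.3 CPM against 74.3 to 156 CPM, with orco_KO at 114 to 280 CPM. With 0.5 CPM added the median of the 9 was -0.52, and with total counts -0.28, where 8 of 9 stayed below 0. The noncoding RNA Kakusei, known in the honey bee brain for its response to neural activity, was at 6.77 and 9.30 CPM against 1.21 to 3.88 CPM and did not reach the 2-fold gap.

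In the other lists at most 1 member was set apart. Median differences were -1.56 for 3 fat body and haemolymph proteins (Vg set apart), -1.16 for 4 genes of cuticle tanning and the yellow family (Y-y set apart), -1.16 for 6 immune genes, -0.92 for 5 neuropeptide genes and receptors, -0.66 for 4 patterning transcription factors and -0.62 for 8 muscle genes. With 0.5 CPM added, and then with total counts as well, these medians were -0.71 and -0.52 for fat body, -0.86 and -0.51 for tanning, -0.62 and -0.29 for immune genes, -0.92 and -0.46 for neuropeptides, -0.66 and -0.22 for patterning factors and -0.68 and -0.24 for muscle. Ligand-gated channels and transmitter receptors had a median of 0.19 over 12 genes. Biogenic amine receptors had -0.25 over 9 genes, products of head glands and venom -0.20 over 3 and clock genes -0.34 over 2, and these 3 medians changed sign with total counts, to 0.17, 0.29 and 0.08. The 2 tested eye opsins had a median of -0.17, which is 0.03 with 0.5 CPM added, and the list of silk proteins had no matched gene.

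**Figure D3:**
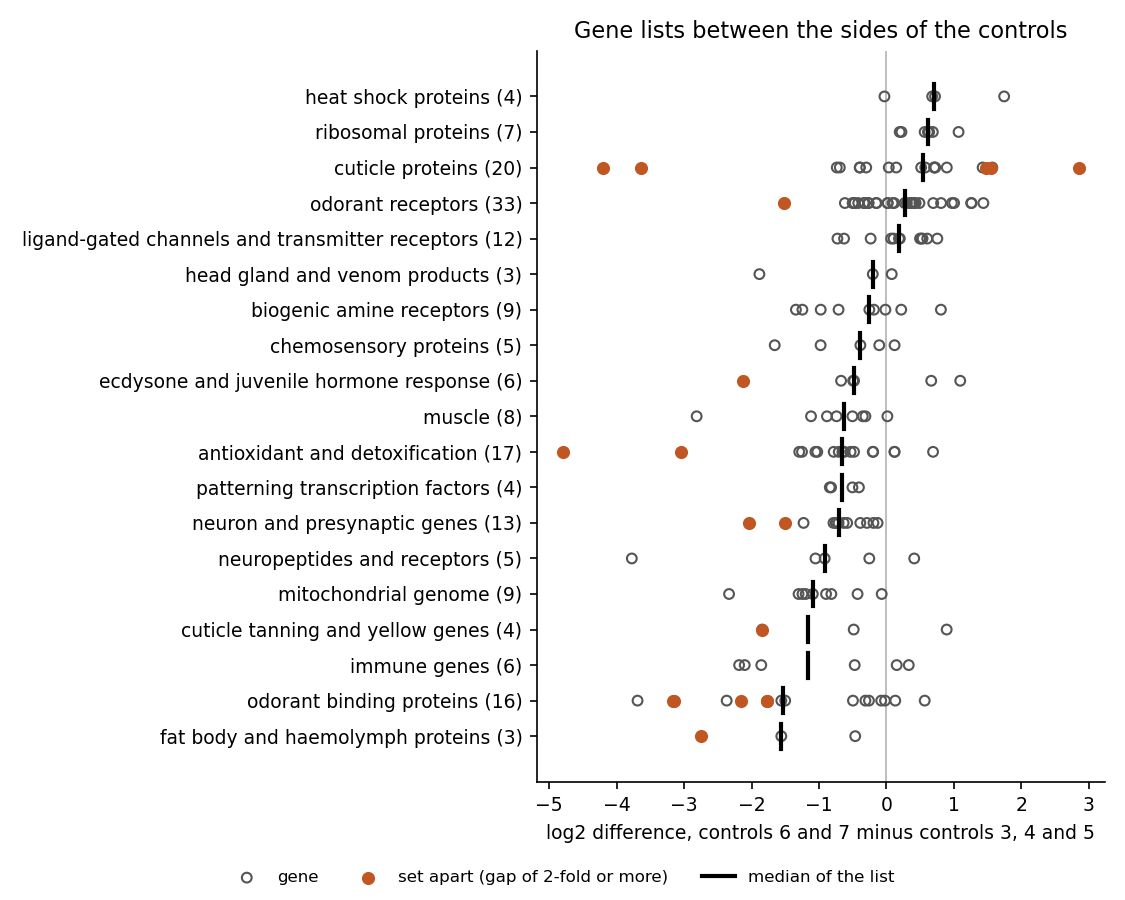
The log2 difference, controls 6 and 7 minus controls 3, 4 and 5, of each tested gene (open circles; filled where set apart) in the 19 lists with at least 3 tested genes, with a bar at each list's median and the number of genes in brackets. Medians run from 0.70 for heat shock proteins to -1.56 for fat body and haemolymph proteins.

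The 51 genes higher in controls 6 and 7 were mostly without a symbol, and the 4 with the widest gap were known by identifier only. LOC100578666 (linkage group 3, 8383007 to 8385506) had no read in controls 3, 4 and 5 and 259 and 300 reads in controls 6 and 7, which makes it at least 125-fold higher against a floor of 3 reads over the 3 empty libraries. This floor covers counting error only, since read copies cannot be told from separate molecules here. In orco_KO it had no read in 3 libraries, 4 in library 5 and 1 in library 11, so it passed the filter on low counts only through controls 6 and 7. LOC100578625 (linkage group 9, 9503099 to 9505051) was at 8.47, 7.02 and 4.36 CPM against 136 and 128 CPM. In orco_KO it reached 131 CPM in library 5 and 43.9 CPM in library 3, and was at 6.23 to 11.3 CPM in the other 3. LOC113218542, a long noncoding RNA gene (linkage group 2, 15431056 to 15435042), was at 1.21, 0.966 and 1.23 CPM against 20.6 and 22.7 CPM, and of the orco_KO libraries library 3 alone was high, at 17.1 CPM against 1.12 to 2.17 CPM. LOC410038 (linkage group 4, 10178645 to 10187901) was at 9.41, 21.97 and 17.8 CPM against 210 and 209 CPM, with orco_KO between 10.4 and 85.7 CPM. For these 4 genes controls 6 and 7 agreed closely with each other, which the choice by widest gap favours. Values in orco_KO were either near the other controls or divided.

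Besides CPR6, CPR27 and Cpap3-c, the higher genes with a symbol were Grp and SPG11. Grp (linkage group 9, 1013770 to 1017473) was at 1.34, 0.322 and 1.29 CPM against 10.6 and 9.10 CPM, and at 0.409 to 7.53 CPM in orco_KO. SPG11, whose human counterpart codes for the lysosome-related protein spatacsin, was at 4.17, 6.31 and 6.68 CPM against 14.7 and 17.999 CPM, with orco_KO at 1.87 to 8.04 CPM. Among lower genes known by identifier, LOC102655185 was at 26.9, 59.8 and 29.2 CPM against 4.39 and 0.674 CPM, LOC408453 at 97.4, 69.3 and 81.8 against 14.9 and 13.2 CPM, and the long noncoding RNA gene LOC102656509 at 30.0, 14.6 and 20.4 against 0.719 and 2.83 CPM. In orco_KO, LOC102655185 spread from 6.84 to 204 CPM, and LOC408453 (59.2 to 236 CPM) and LOC102656509 (13.2 to 23.3 CPM) stayed with controls 3, 4 and 5.

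**Figure D4:**
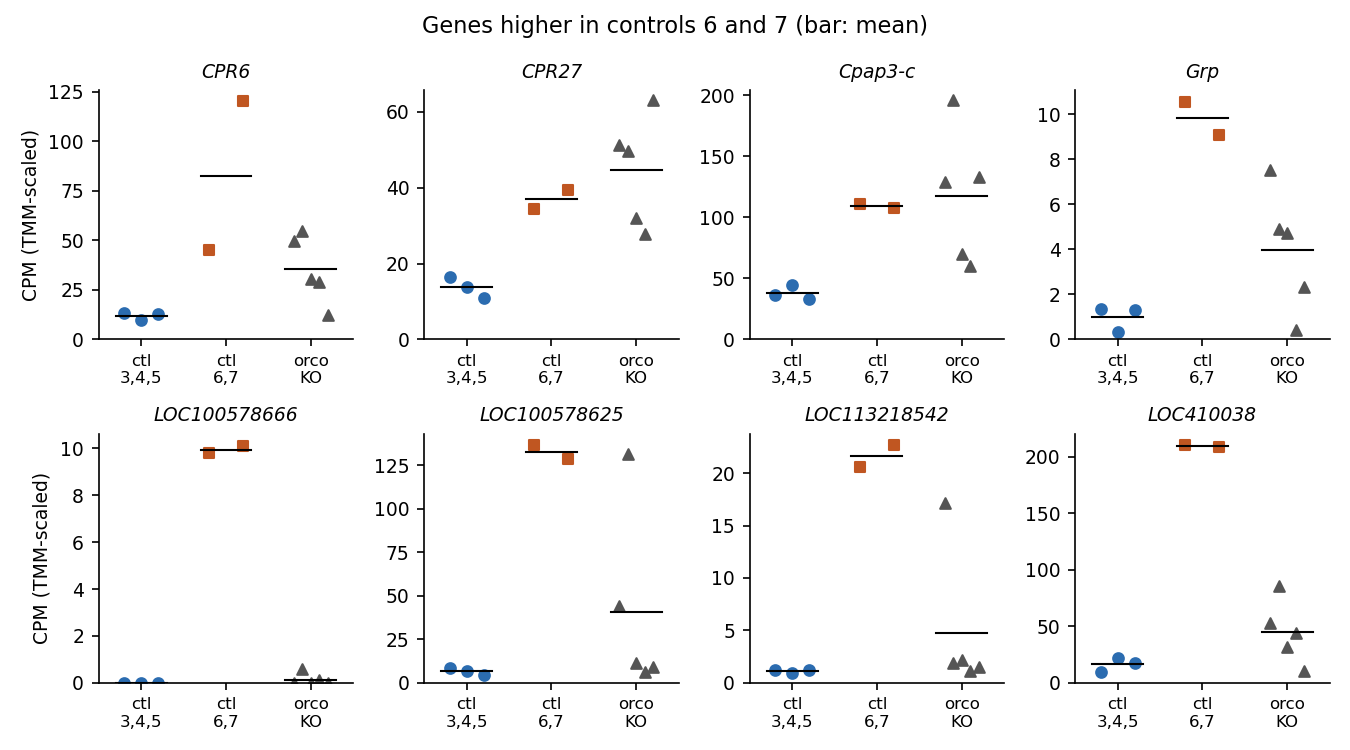
TMM-scaled CPM (linear axes from 0) in each library of 8 genes that were set apart as higher in controls 6 and 7, with circles for controls 3, 4 and 5, squares for controls 6 and 7, triangles for orco_KO and a bar for each mean. The squares lie above the circles throughout, and the triangles spread between them or, for CPR27 and Cpap3-c, reach above the squares.

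Span, gene class, level and position of the set-apart genes were set beside those of all tested genes as a description. The level comes from the same control values as the split. Lower genes had a median span of 6963 bases and higher genes of 3284 bases, against 4409 bases over all. Spans of 50 kb or more made up 10.2% of lower genes, 1.96% of higher genes and 8.09% of all, and since reads over the whole span were counted, long introns add to a gene's count. Long noncoding RNA genes were 17.6% of higher, 7.87% of lower and 9.44% of all tested genes. The median level over the controls was 6.14 CPM for higher genes, 34.95 CPM for lower genes and 11.9 CPM for all. Next to each other in the annotation lay 2 pairs of higher genes and 14 pairs of lower genes, among them brp with LOC100859932, Obp5 with Obp6 and Apd-3 with Apd-1. The number of pairs depends on the size of the set, and no background was counted, so nothing is read from it. The lower pairs also include neighbours that overlap on one strand.

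The orco_KO libraries did not define the sides, and their place was read for each gene against the midpoint between the mean log2 CPM of both sides. Of the 127 lower genes, 61 (48.0%) had all 5 orco_KO libraries on the side of controls 3, 4 and 5, compared with 29.5% of all tested genes. All 5 were on the side of controls 6 and 7 for 18 (14.2%), compared with 11.9% of all, and 48 genes were divided. Of the 51 higher genes, 13 (25.5%) had all 5 with controls 3, 4 and 5, 3 (5.88%) had all 5 with controls 6 and 7, and 35 were divided. The set-apart genes were chosen for sides far from each other, which all tested genes were not, so the shares are no test. With a symbol, Obp1, Obp6, Obp21, E75, Fem, Gr10, Vg and Y-y were among the 61, brp, AChE-2 and Or19 among the 18, SPG11 among the 13 and CPR27 among the 3.

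The orco_KO libraries were similar in this respect for lower genes, with 21.3% of the 127 genes on the side of controls 6 and 7 in library 5 and 32.3% to 35.4% in the other 4. On a scale with 0 at the mean of controls 3, 4 and 5 and 1 at that of controls 6 and 7, their median positions ran from 0.11 to 0.32. For higher genes the share ran from 21.6% in library 12 to 47.1% in library 5, with median positions of 0.24 to 0.46. Higher genes also varied more within orco_KO than most genes did: their median SD over the 5 libraries was 0.57 on the log2 scale, against 0.39 for lower genes and 0.33 for all tested genes. Among controls 3, 4 and 5 the same medians were 0.31, 0.34 and 0.31, but the gap rule favours genes that vary little there. Higher genes were also low in level, at a median of 6.14 CPM over the controls against 11.9 CPM for all tested genes. Low counts widen an SD on the log2 scale, and the part of level in these SDs was not tested. Of the 51, 47 passed the filter on low counts for the comparison of orco_KO with all controls.

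**Figure D5:**
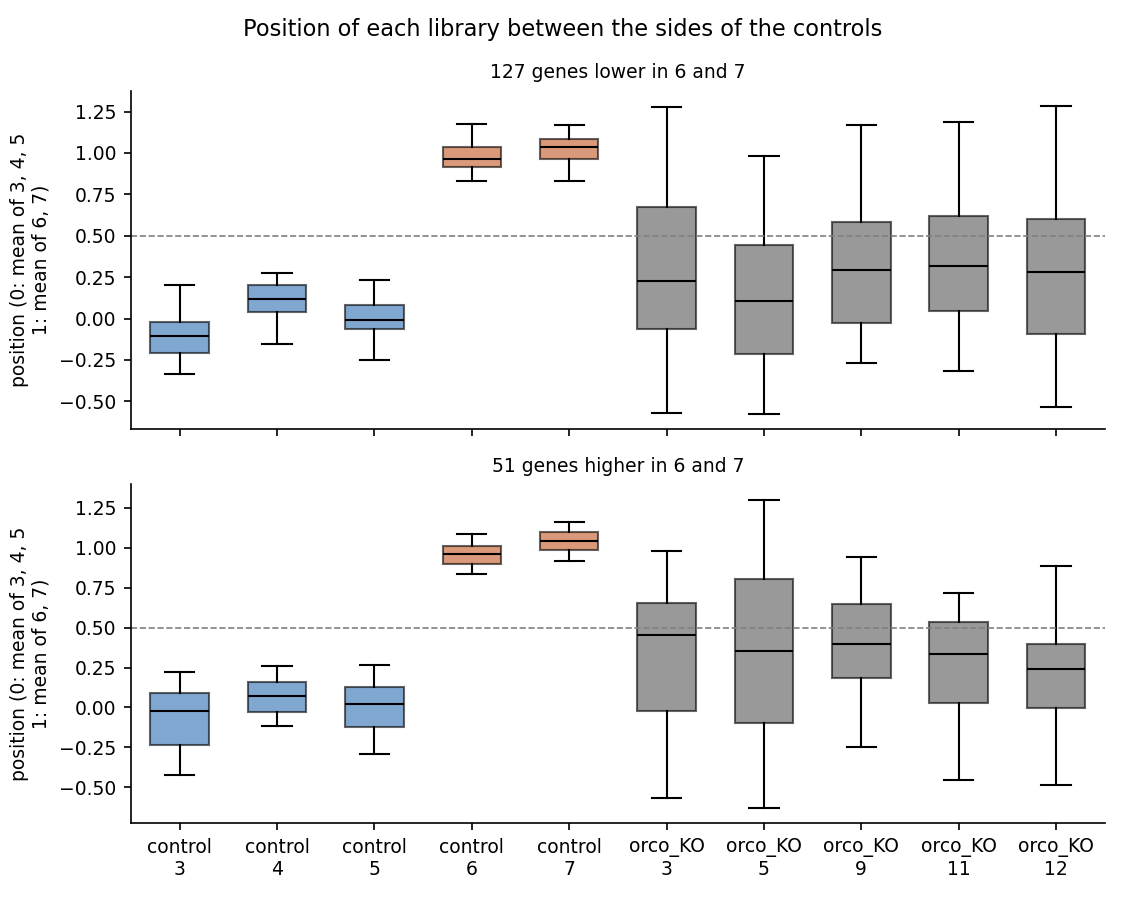
Position of each library between the sides for the genes lower (top) and higher (bottom) in controls 6 and 7, on a scale with 0 at the mean of controls 3, 4 and 5 and 1 at the mean of controls 6 and 7. Boxes span the quartiles over genes, with a line at the median, whiskers reach the 5th and 95th percentiles and the dashed line marks the midpoint. All orco_KO medians lie below it. The controls set the scale and the choice of genes, so their narrower boxes follow from that choice.

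The comparison of orco_KO with all 5 controls does not depend on the split by its construction, but a gene chosen for a wide spread among controls enters it with that spread as error. By edgeR's quasi-likelihood test with Benjamini-Hochberg adjustment over 9222 genes, 736 genes were lower (7.98%) and 421 higher (4.57%) in orco_KO. The higher count was 684 without control 3, 250 without control 6 or orco_KO 3 and 276 without control 7. Among the 125 lower set-apart genes tested, 10 were lower and 0 higher in orco_KO. All 10 had each orco_KO library on the side of controls 6 and 7, and 6 of them kept the call whichever library was left out (brp, AChE-2, LOC412099, LOC100859932, LOC113219231 and LOC410246). The count of lower genes was 6 without control 3 or 5 or without orco_KO 3 or 12, and 10 were higher without control 3 and 5 without control 4. At an unadjusted p under 0.05 edgeR gave 18 and 22, and DESeq2 gave 13 and 8 at an adjusted p under 0.05. Of 47 higher set-apart genes tested, 3 were lower in orco_KO (LOC552725, LOC113219128 and LOC107964314) and 0 higher, with 7 and 1 unadjusted by edgeR and 3 and 1 adjusted by DESeq2. The shares that were lower are near the share of all genes. AChE-2 fell in orco_KO by 1.66 ± 0.35 (log2, SE; edgeR adjusted p = 0.00563) and brp fell by 1.90 ± 0.45 (edgeR adjusted p = 0.0126). Both calls held in each of the 10 fits that left out 1 library, with adjusted p up to 0.0215 and 0.0408.

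Against controls 6 and 7 alone, brp differed by -0.31 (edgeR adjusted p = 0.423) and AChE-2 by -0.51 (edgeR adjusted p = 0.108), while against controls 3, 4 and 5 alone they differed by -2.42 and -2.10. Both fits share the orco_KO libraries, and these genes were chosen for differing between the controls, so the values stand side by side without a test between them. Or2 kept its size, at -3.83 against controls 6 and 7 and -4.18 against controls 3, 4 and 5. For Obp1 the difference from all controls was -0.03 ± 0.39 (SE; edgeR adjusted p = 0.977), and for E75 -0.18 ± 0.42 (edgeR adjusted p = 0.832). Kakusei fell by 2.20 ± 0.62 (edgeR adjusted p = 0.0310), a call that was lost without control 6 or 7 or without orco_KO 9, 11 or 12 (adjusted p up to 0.0875). Over all genes, leaving out controls 6 and 7 gave 708 lower and 200 higher genes in orco_KO, and leaving out controls 3, 4 and 5 gave 1077 and 1380. Among set-apart genes with lower values in controls 6 and 7, 33 were lower and 0 higher in orco_KO against controls 3, 4 and 5 alone (backgrounds 7.71% and 2.18%), and 0 were lower and 91 higher against controls 6 and 7 alone (backgrounds 11.2% and 14.3%). As the genes were picked on these controls, nothing is read from those counts.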

How the data were processed

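RNA of 10 antennal libraries was extracted with a PicoPure kit, depleted of ribosomal RNA, made into stranded libraries and sequenced on 1 lane, per the labels' protocols. The labels also call the molecule polyA RNA, which goes against a depletion of ribosomal RNA, so whether RNA without a poly(A) tail was kept is unclear, and this bears on ribosomal, mitochondrial and noncoding levels. The tables deposited by the authors, 1 per library, hold raw counts of reads by gene, with no normalization. Per the submitters' processing notes reads were aligned with STAR 2.7.3a, and per the file headers they were counted with featureCounts 2.0.0, with strand setting 2 and the whole gene span as feature. Introns therefore count, and reads that map to several places or lie in overlapping genes of one strand were left out, which touches 1279 bee genes. Of 12337 features, 5 were virus genomes and 12332 bee genes; 12325 were matched by position to the RefSeq table of Amel_HAv3.1, 830 of them having a gene symbol and not just an LOC identifier. Positions are those of the deposited tables. No batch is labelled.

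Genes were kept with edgeR 4.0.16 (R 4.3.3; filterByExpr), and CPM used TMM-scaled bee gene counts. A gene was set apart where the nearest libraries of both sides differed at least 2-fold after 0.5 CPM had been added. Log2 differences with SE come from the quasi-likelihood fit to the 5 controls and carry no test. The comparison of orco_KO with controls used the quasi-likelihood test at an adjusted p of 0.05, and depth and virus reads exact permutation tests. The scripts were tested on simulated counts. Alternatives covered scaling, filters, the gap, DESeq2 1.42.0, the midpoint, subsets of controls and each library left out. The members, the gene lists (24, of which 23 had a matched gene; they rest on symbols) and the rules were chosen with earlier results of these data known. Named were Or2, the 12 genes with a symbol and 4 others with the widest gap in each direction and a mean of at least 1 CPM over the controls, up to 3 members per list with the widest gap or else its most abundant one, and E75, brp, AChE-2 and Kakusei. Nrx-1, Para, Dscam, E74, Mblk-1, Fem, Apd-2, Obp2, Obp4, Obp10, Obp17, Obp18, the genes at the threshold and the LOC genes named for their call in orco_KO were chosen after their values were seen. Figures were drawn with matplotlib 3.10.9.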

Additional observations from a re-analysis of the deposited data

Results flagged for a closer look

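In groups of 5 libraries, one value lay far from the other 4 in 11 of the 114 groups examined, and chance alone flags about 1 in 20. Among controls, control 6 stood apart in virus reads, with 130 per 1000000 reads, 2582 reads of IAPV, 212 of Varroa destructor virus (VDV) and 15 of acute bee paralysis virus (ABPV), against at most 3.37 per 1000000 reads, 19, 51 and 1 in the other controls. The microRNA gene Mir3759 was at 20002 CPM in control 5 and at 27484 to 30070 CPM in the other controls. Within orco_KO, library 5 was high for LOC100578666 (0.575 CPM, others 0 to 0.102 CPM), brp (1619 CPM, others 713 to 974 CPM) and InR-2 (461 CPM, others 337 to 363 CPM). Library 12 was high for Obp5 (442 CPM, others 181 to 233 CPM) and Apd-3 (9.59 CPM, others 0 to 2.29996 CPM). Library 3 was high for LOC113218542 (17.1 CPM, others 1.12 to 2.17 CPM).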

How the results depend on the processing

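Total counts in place of TMM set apart 253 higher and 38 lower genes, a mean of at least 10 CPM left 18 higher, and a 1.5-fold gap gave 334 and 519. Side means 2-fold apart without overlap gave 396 and 521, and the edgeR fit to the controls at an adjusted p of 0.05, as a description, 208 and 545, sharing 45 and 126 with the main sets. Leaving out 1 control gave 77 to 154 higher and 172 to 303 lower genes (most without controls 4 and 6), since a gap over fewer libraries is met more often. Genes with all orco_KO libraries on the side of controls 3, 4 and 5, then of 6 and 7, numbered 110 and 6 (higher set) and 15 and 8 (lower set) with total counts, and 123 and 13, then 254 and 80, with a 1.5-fold gap. The midpoint of the nearest libraries gave 11 for the last. Leaving out 1 library gave 13 to 55 and 3 to 13, then 63 to 170 and 18 to 61, the highest without control 6, 4, 6 and 4. Against controls, 200 genes were higher in orco_KO with controls 3, 4 and 5 alone, 1380 with 6 and 7 alone and 780 by DESeq2 (824 lower). Leaving out 1 library gave 589 to 791 lower and 250 to 684 higher, with 684 without control 3, 250 without control 6 or orco_KO 3 and 276 without control 7. Of the higher set, 1 gene was lower and 9 higher in orco_KO with controls 3, 4 and 5 alone, 26 lower with 6 and 7 alone, 1 higher by DESeq2, and without 1 library 3 lower and 0 to 1 higher. Of the lower set, 33 were lower with controls 3, 4 and 5 alone, and 0 lower and 91 higher with 6 and 7 alone. In that set 2 were higher with no filter and 8 by DESeq2, and without 1 library 6 to 15 were lower and 0 to 10 higher (10 without control 3). With controls 6 and 7 alone, LOC725408, LOC100577600 and LOC410449, lower in orco_KO otherwise, gave log2 differences of 0.114, 0.0862 and 0.0286. The cause was not tested in any of these cases.

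The groups share the replicate numbers 3 and 5, which no label ties to a common source, and deviations from the group means correlated at 0.1001 and 0.158 over genes, so these libraries were not treated as paired. A replicate block on these 4 libraries gave 565 genes lower and 418 higher in orco_KO. Without the block the same 4, a fit added after the data had been seen, gave 453 and 222. The higher set then held 0 lower and 16 higher genes with the block and 0 and 14 without it, and the lower set 27 and 7 with it and 20 and 6 without it.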
